A study of Rattus norvegicus with 15 samples.

Results

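A group of 7 miRNAs known from neurons were followed in rat sciatic nerve after injury: rno-miR-7a, rno-miR-9, rno-miR-9*, rno-miR-124, rno-miR-128, rno-miR-137 and rno-miR-218. They were taken by name, as every array entry whose systematic name matched this list of 7, out of 350 rat miRNAs on the array. All 7 were found. The tissue came from the sciatic nerve of adult male rats at 1, 4, 7 and 14 days after injury, with uninjured nerve as day 0, and each of the 5 groups had 3 one-colour Agilent arrays. The labels describe the operation both as a resection with 0.5 cm of proximal nerve taken and as a crush with sections of about 0.5 mm taken, so it is called injury here. They do not say whether the 3 samples of a group came from separate animals, so the p-values reflect only the variation among these samples, possibly a technical one.

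A miRNA is a short RNA that guides Argonaute proteins to messenger RNAs matching its seed, bases 2 to 8 from the 5′ end, and lowers their translation or stability. The miRNAs followed here are enriched in brain and spinal cord, where they help set and keep the neuronal state. The sciatic nerve holds the axons of motor and sensory neurons, whose cell bodies lie in the spinal cord and dorsal root ganglia, together with Schwann cells, fibroblasts, vessels and, after injury, many leukocytes. In such bulk tissue, fewer cells of a type and less RNA per cell cannot be told apart.

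The mature sequences are shown because the members are different guides and not copies of a single one. Of the 7, 6 were matched by name in the RefSeq table used here (GRCr8), with 6 different seeds, written in capitals.
miR-7a: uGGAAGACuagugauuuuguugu
miR-9: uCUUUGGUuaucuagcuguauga
miR-9*: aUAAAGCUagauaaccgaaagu
miR-128: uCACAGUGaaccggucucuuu
miR-137: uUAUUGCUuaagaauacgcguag
miR-218: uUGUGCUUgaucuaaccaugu
In the RefSeq table only the seed of miR-7a recurred in another rat miRNA, miR-7b, which was not detected on any array.

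miR-9 and miR-9* are the opposite arms of the same hairpins, which is shown for Mir9-2 (GRCr8 chr2:15933292-15933378, plus strand) with both mature arms in capitals, miR-9 first.
Mir9-2: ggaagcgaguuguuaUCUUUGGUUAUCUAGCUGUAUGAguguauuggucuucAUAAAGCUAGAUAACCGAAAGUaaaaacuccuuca
The same 2 mature RNAs also lie in Mir9-1 and Mir9-3, so the array cannot say which of the 3 genes made them. Mature miR-7a lies within the protein-coding gene Hnrnpk (Mir7-1, chr17:6278710-6278732, plus strand) and in Mir8 on chromosome 1. miR-218 lies within Slit3 on chromosome 10 and within Slit2 on chromosome 14, genes for secreted axon guidance proteins. miR-128 lies within R3hdm1 on chromosome 13 and within Arpp21 on chromosome 8, and miR-137 lies in a long noncoding RNA (chr2:209165767-209165789, plus strand). All of these positions are from GRCr8.

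Levels are given as a percent of each array's 75th percentile signal (computed on the 164 miRNAs that every array detected), and changes as differences of mean log2 levels, injured minus day 0. Each member was read by 2 probes with at least 16 usable spots per array, and the standard error over spots was at most 5.90% of the level. The members were detected on all 15 arrays, except miR-137, which was detected on 14 and not on day 14 replicate 3. That array stood apart: 172 miRNAs were detected there, against 200 to 239 on the others, and 5.67% of its spots were outliers, against 2.66% to 4.17%. The SD of its negative controls was 10.8 intensity units, against 2.08 to 4.25. It was also alone on its slide and on its scan day, so the day 14 group mixes slides and scan days. Day 0, day 1 and day 4 arrays each filled their own slide, so in every comparison with day 0 slide and group cannot be told apart. The same holds for day 4 against day 1 and for day 7 against day 4. Day 0 and day 1 arrays were also each scanned on a day of their own, while day 4 and day 7 arrays shared a scan day. Only days 7 and 14 had arrays on the same slide. The comparisons with day 0 all share the same 3 uninjured arrays. Over all 5 groups the level of every member changed in limma's F test, as did 86.1% of the 231 miRNAs tested, with adjusted p between 4.67e-07 for miR-7a and 0.000858 for miR-128. With no scaling between arrays, 6 of the 7 passed.

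**Figure D1:**
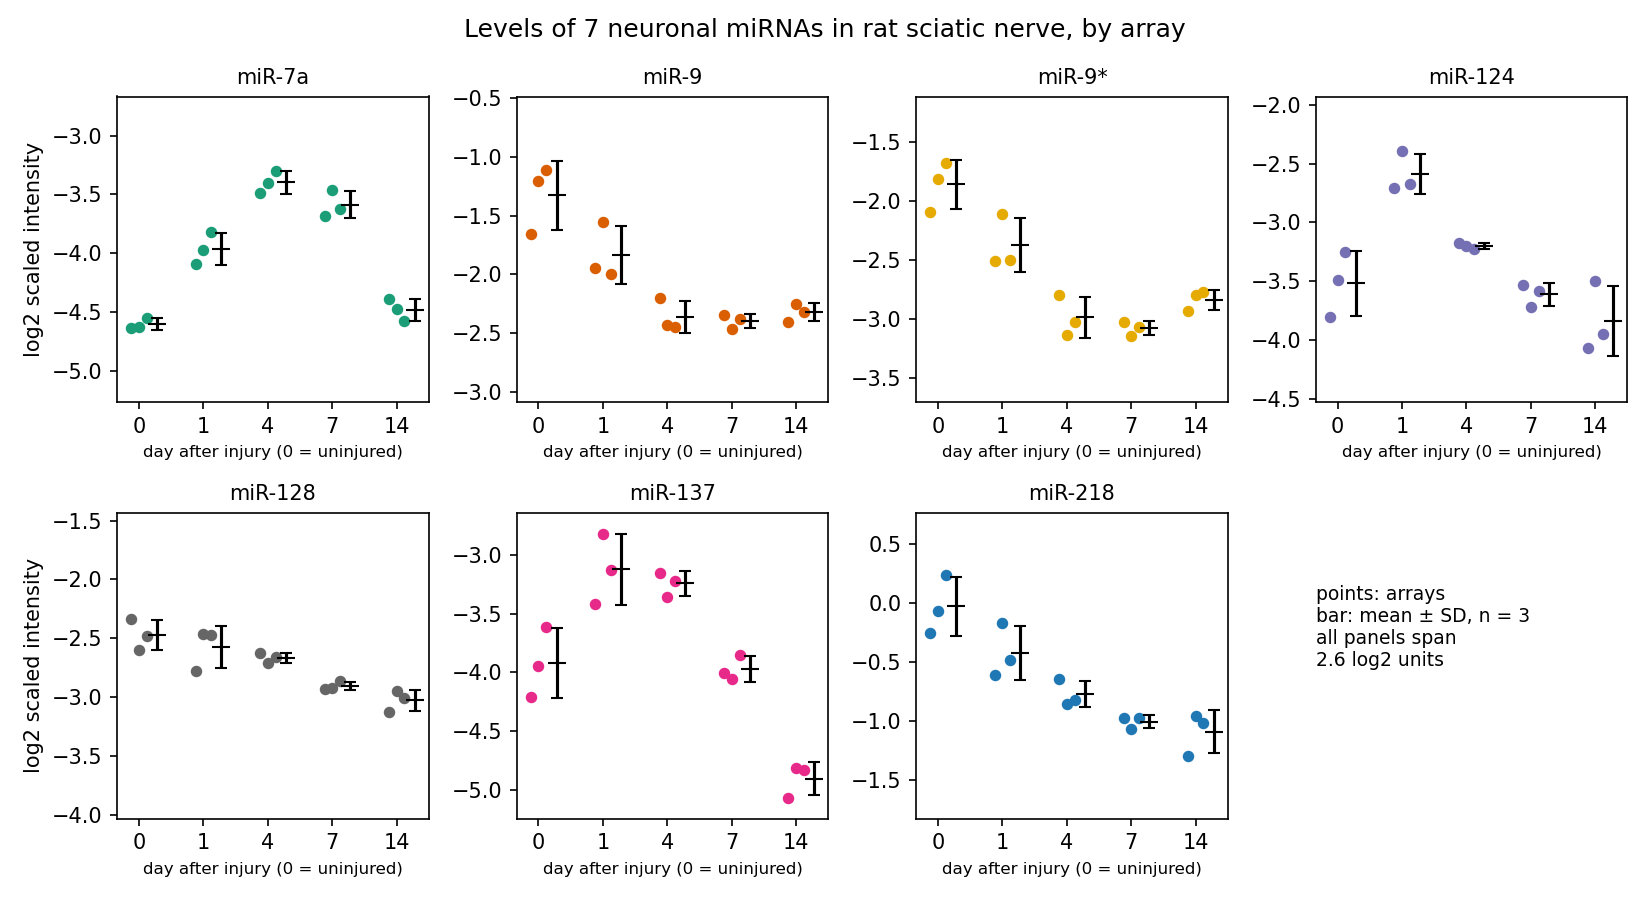
Level of each of the 7 miRNAs on each array, as log2 of the scaled intensity (vertical axis, 2.6 log2 units in every panel), against day after injury; points are arrays and bars are the mean ± SD of 3 arrays. miR-7a was highest on day 4, miR-124 and miR-137 on day 1, and miR-9, miR-9*, miR-128 and miR-218 on day 0.

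The 7 members did not move as 1 group, as the plot of levels by array shows. miR-7a was raised through day 7, miR-124 and miR-137 were raised early, and miR-9, miR-9* and miR-218 were lower at every time after injury. The day 1 falls of miR-9, miR-9* and miR-218 passed under only 3, 4 and 3 of 6 scalings. On day 1 against day 0, 6 of the 7 passed limma's test at an adjusted p of 0.05, beside 60.6% of all tested miRNAs. Of these, 3 were higher and 3 lower, beside 16.9% and 43.7% of all tested miRNAs. On day 4 against day 0, 5 passed (65.8% of all tested), 2 of them higher (20.3%) and 3 lower (45.5%). On day 7 there were also 5 (62.8%), 1 higher (17.3%) and 4 lower (45.5%), and on day 14 again 5 (66.7%), none higher (16%) and 5 lower (50.6%).

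These counts stood in a tissue in which most tested miRNAs changed, and nothing particular to the 7 is read from them. The arrays of injured and day 0 nerve did not overlap for 4 members on day 1 (53.7% of all tested miRNAs), 7 on day 4 (77.1%), 5 on day 7 (74.9%) and 5 on day 14 (62.8%). The median change of the 7 was -0.10, -0.20, -0.43 and -0.98 on days 1, 4, 7 and 14. Over all 231 tested miRNAs it was -0.26, -0.26, -0.32 and -0.37. Summed, the 7 held 0.675 ± 0.059%, 0.719 ± 0.042%, 0.597 ± 0.035%, 0.503 ± 0.017% and 0.455 ± 0.012% of the signal of all miRNAs on days 0, 1, 4, 7 and 14 (SD, n = 3 each).

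**Figure D2:**
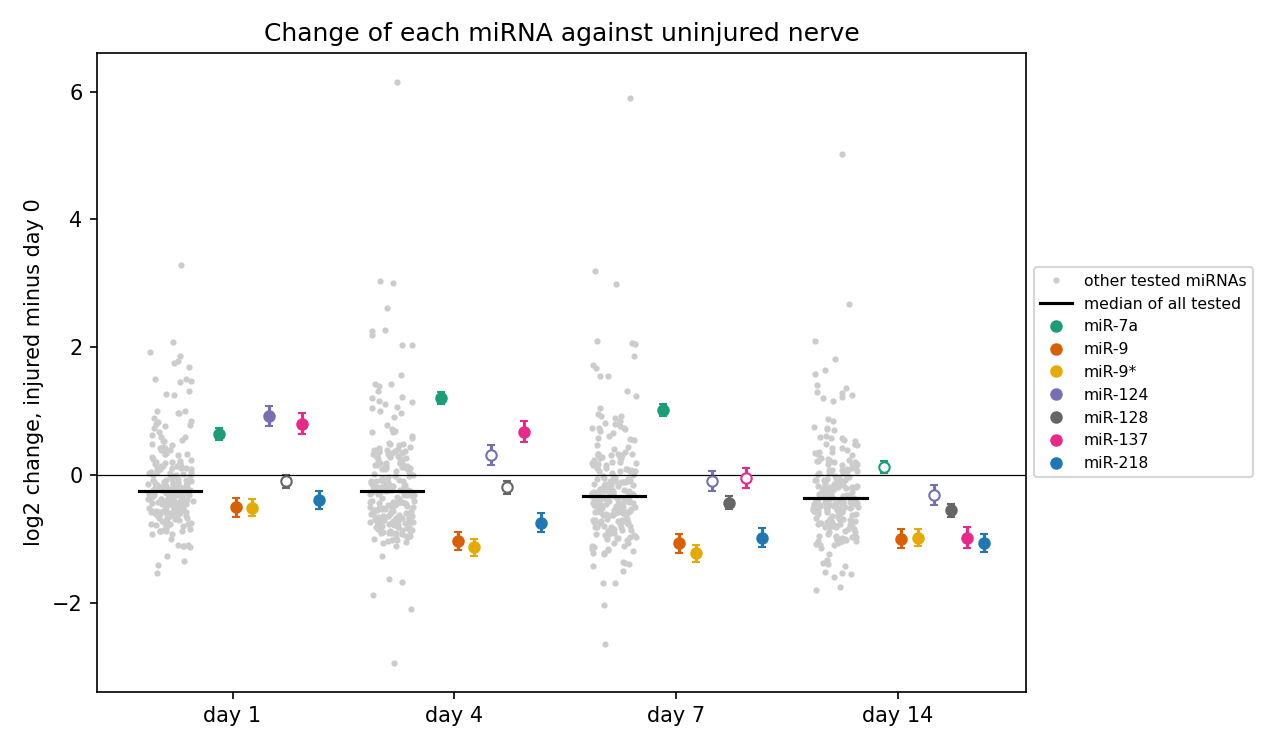
Change of each miRNA against uninjured nerve (vertical axis, log2, injured minus day 0) at days 1, 4, 7 and 14; coloured points are the 7 members with their SE, filled where the adjusted p was below 0.05, grey points are the other tested miRNAs and black lines the median of all tested. miR-7a lay above the median line at all 4 times, and miR-9, miR-9* and miR-218 lay below it.

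miR-7a is abundant in neurons and neuroendocrine cells, represses α-synuclein, and is bound by the circular RNA Cdr1as in brain. Its level was 4.02%, 4.06% and 4.28% on day 0, 5.86%, 6.37% and 7.08% on day 1, 8.89%, 9.44% and 10.2% on day 4, 7.79%, 9.08% and 8.11% on day 7, and 4.76%, 4.51% and 4.19% on day 14. All arrays of days 1, 4 and 7 lay above all day 0 arrays, while day 14 overlapped day 0. The order of the means was day 4, 7, 1, 14 and 0, and the neighbours that overlapped were days 4 and 7 and days 14 and 0.

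Against day 0, miR-7a rose by 0.64 on day 1 (adjusted p = 0.00012), by 1.21 on day 4 (adjusted p = 2.67e-07) and by 1.01 on day 7 (adjusted p = 1.62e-06), each with an SE of 0.10. These changes correspond to 1.56-fold, 2.31-fold and 2.02-fold higher levels. On day 14 the difference was 0.12, with a 95% interval from -0.09 to 0.33 (adjusted p = 0.281). Between days 1 and 4 it rose by a further 0.56 (adjusted p = 0.000444), and the level fell by 0.89 between days 7 and 14 (adjusted p = 8.92e-05). Within the slide that carried 3 day 7 and 2 day 14 arrays, the day 14 minus day 7 difference was -0.84 (adjusted p = 0.00844). Without day 14 replicate 3, the day 14 difference from day 0 was 0.26 and passed (adjusted p = 0.0263). With normexp background correction, which adds 50 intensity units to every spot, the changes from day 0 were smaller at 0.26, 0.47 and 0.29 on days 1, 4 and 7, all called, and the day 4 minus day 1 difference of 0.21 did not pass (adjusted p = 0.0658).

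The probes of miR-7a agreed on the rise, with 1.36 from the dimmer and 1.18 from the brighter on day 4 against day 0. On day 14 against day 0 they disagreed, with -0.82 from the dimmer probe and 0.21 from the brighter. The dimmer probe read 1.90 intensity units on day 14 replicate 3, its lowest value, and without that array it gave 0.12 and the brighter 0.19. Leukocyte miRNAs also rose after injury: 3 of 5 were higher on each of days 1, 4, 7 and 14, beside 16.9%, 20.3%, 17.3% and 16% of all tested miRNAs. On day 14, miR-142-3p and miR-142-5p were called higher (1.28 and 1.20). There miR-342-3p (0.36) was called and miR-223 (0.21) was not. The lymphocyte miRNA miR-150 was lower on days 4, 7 and 14 (-0.60, -0.73 and -0.69). The summed share of the 5 in the signal was 0.564 to 0.625% on day 0, 1.19 to 1.78% on day 1, 1.24 to 1.39% on day 4, 1.25 to 1.37% on day 7 and 0.882 to 1.13% on day 14. All 5 were detected on all 15 arrays. Their part in the miR-7a result was not tested. The endocrine marker miR-375 was not detected on any array.

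miR-124 is among the most abundant miRNAs of neurons and represses non-neuronal transcripts such as the splicing regulator Ptbp1. Its level was 7.15%, 8.89% and 10.5% on day 0, 15.3%, 19.0% and 15.7% on day 1, 11.05%, 10.9% and 10.68% on day 4, 8.66%, 7.58% and 8.32% on day 7, and 5.98%, 8.83% and 6.48% on day 14. Day 1 arrays lay above all others. The order of the means was day 1, 4, 0, 7 and 14, in which days 0 and 7 overlapped, as did days 7 and 14.

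The 1.90-fold higher level on day 1 against day 0 was a log2 change of 0.92 ± 0.16 (SE, adjusted p = 0.000269), and both probes gave it, with 1.05 and 0.90. By day 4 the level was 0.61 below that of day 1 on the log2 scale (change -0.61, adjusted p = 0.00625). Against day 0 it differed by 0.32 on day 4 (95% interval -0.02 to 0.65, adjusted p = 0.0909), -0.10 on day 7 (-0.43 to 0.24, adjusted p = 0.596) and -0.32 on day 14 (-0.66 to 0.02, adjusted p = 0.0886). Without day 14 replicate 3, which helps set the scale, the day 4 difference was 0.46 and passed (adjusted p = 0.0237). With normexp the day 1 difference was 0.54 and the day 14 difference of -0.30 passed (adjusted p = 0.0195). The passenger arm miR-124* was not detected on any array.

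miR-137 lowers the Polycomb methyltransferase Ezh2 in mouse neural progenitors and acts in neuronal maturation. Its level was 5.40%, 6.51% and 8.15% on day 0, 9.33%, 14.2% and 11.4% on day 1, 11.3%, 9.77% and 10.71% on day 4, 6.22%, 5.999% and 6.94% on day 7, and 2.99%, 3.55% and 3.52% on day 14. Days 1 and 4 lay above day 0 without overlap, day 7 within its range, and day 14 below every other array. Days 1 and 4 overlapped, as did days 0 and 7.

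miR-137 was the member that crossed from higher to lower. It rose by 0.80 on day 1 (adjusted p = 0.000909) and by 0.68 on day 4 (adjusted p = 0.00228), and fell by 0.98 on day 14 (adjusted p = 0.000163), each against day 0 with an SE of 0.16. The day 7 difference was -0.05 (95% interval -0.40 to 0.30, adjusted p = 0.795). The level fell by 0.73 between days 4 and 7 (adjusted p = 0.0178; the call was lost without day 4 replicate 1 or 3 or day 7 replicate 1 or 2, and with the deposited table, the software's total signal, the brightest probe, normexp or no scaling), where it was the only member called beside 6.06% of all tested miRNAs (1.3% higher and 4.76% lower). The arrays of days 7 and 4 did not overlap for 4 members, beside 50.6% of all tested. It fell by 0.93 again between days 7 and 14 (adjusted p = 0.00292), and by 0.97 within the shared slide (adjusted p = 0.00844). The deposited table and the software's total signal gave -2.21 and -1.84, which did not pass (adjusted p = 0.0929 and 0.0511). With normexp the differences from day 0 were 0.41, 0.30 and -0.52 on days 1, 4 and 14, all called. Between days 7 and 14, miR-137 and miR-7a were the 2 members called, both lower, beside 13.9% of all tested miRNAs (4.76% higher and 9.09% lower). The arrays of days 14 and 7 did not overlap for 4 members, beside 38.1% of all tested.

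Erythroid miRNAs were also high on day 1: the summed share of miR-451 and miR-144 was 0.230 to 1.42% on day 0, 1.37 to 3.98% on day 1, 0.739 to 1.60% on day 4, 0.470 to 1.13% on day 7 and 0.471 to 0.572% on day 14. Of these, miR-451 passed the test on day 1 and miR-144 did not. Their part in the day 1 rises of miR-124 and miR-137 was not tested.

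miR-9 represses the neuronal gene silencer REST and miR-9* its corepressor CoREST, and miR-9 also acts in axons of mouse cortical neurons. The level of miR-9 was 31.6%, 43.3% and 46.3% on day 0, 25.9%, 34.0% and 24.99% on day 1, 21.7%, 18.6% and 18.3% on day 4, 19.7%, 18.1% and 19.2% on day 7, and 18.9%, 21.03% and 20.1% on day 14. That of miR-9* was 23.5%, 28.5% and 31.3% on day 0, 17.6%, 23.2% and 17.7% on day 1, 14.4%, 11.3% and 12.3% on day 4, 12.3%, 11.3% and 11.9% on day 7, and 13.1%, 14.3% and 14.6% on day 14. Day 1 lay between day 0 and the later times for both arms, overlapping day 0 for miR-9 but not for miR-9*. Days 4, 7 and 14 lay below all day 1 arrays for both arms, and their order, day 14, 4 and 7, had overlapping neighbours.

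Against day 0, miR-9 fell by 0.51, 1.03, 1.07 and 1.00 on days 1, 4, 7 and 14, with an SE of 0.15 and adjusted p of 0.00839, 3.67e-05, 2.97e-05 and 6.48e-05. miR-9* fell by 0.51, 1.13, 1.22 and 0.98, with an SE of 0.13 and adjusted p of 0.00484, 8.38e-06, 4.65e-06 and 3.49e-05. At its lowest, on day 7, miR-9* was 2.34-fold lower than on day 0, and miR-9 was 2.10-fold lower. Without day 14 replicate 3 the day 1 differences from day 0 were -0.30 for both arms and did not pass (adjusted p = 0.112 for miR-9 and 0.0724 for miR-9*). Between days 1 and 4 both fell further, miR-9 by 0.52 (adjusted p = 0.0101) and miR-9* by 0.62 (adjusted p = 0.00211); the miR-9 call was lost with the brightest probe alone (-0.47, adjusted p = 0.0527). In that interval 4 of the 7 members passed, 1 higher and 3 lower, beside 51.5% of all tested miRNAs (27.7% higher and 23.8% lower), and the arrays did not overlap for 5, beside 60.6%.

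The ratio of the arms was compared within arrays. The log2 difference miR-9 minus miR-9* within an array averaged 0.592 ± 0.082 in injured nerve (SD, n = 12) and 0.531 ± 0.090 in day 0 nerve (SD, n = 3). The difference of 0.06 did not pass an exact two-sided permutation test (p = 0.286, 455 arrangements, smallest possible p 0.0022), but it became 0.16 (exact permutation p = 0.044) with quantile normalization and 0.20 (exact permutation p = 0.022) with the deposited table. The test treats all 15 arrays as exchangeable, but arrays of a group shared a day and, apart from day 14 replicate 3, a slide. None of these p-values is therefore exact for an effect of injury. By time, the log2 difference ran from 0.430 to 0.601 on day 0, 0.500 to 0.559 on day 1, 0.578 to 0.710 on day 4, 0.683 to 0.688 on day 7 and 0.461 to 0.553 on day 14. Thus day 7 lay above all day 0 arrays, and days 1, 4 and 14 overlapped day 0; single times were not tested. Over the 15 arrays the levels of the arms correlated with r = 0.987, a description of arrays that share group and slide.

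miR-218 is enriched in motor neurons, whose survival and function depend on it in mice. Its level was 83.7%, 95.6% and 118% on day 0, 65.4%, 88.9% and 71.5% on day 1, 64.0%, 55.4% and 56.5% on day 4, 50.9%, 47.6% and 50.9% on day 7, and 40.6%, 51.6% and 49.4% on day 14. The means fell in the order of time, with overlap between days 0 and 1 and between days 7 and 14. Against day 0 the level fell by 0.39 (adjusted p = 0.0291), 0.75 (adjusted p = 0.000445), 0.98 (adjusted p = 4.68e-05) and 1.06 (adjusted p = 3.13e-05) on days 1, 4, 7 and 14, each with an SE of 0.14. The day 1 call was lost without day 0 replicate 3, day 1 replicate 1, day 1 replicate 3 or day 14 replicate 3, the last with -0.18 (adjusted p = 0.311). On day 14 it was 2.09-fold lower than on day 0. The other arm, miR-218*, was not detected on any array.

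miR-128 lowers the excitability of neurons in mice. Its level was 19.8%, 16.5% and 17.9% on day 0, 14.5%, 18.1% and 18.02% on day 1, 16.2%, 15.2% and 15.8% on day 4, 13.1%, 13.2% and 13.7% on day 7, and 11.4%, 13.0% and 12.4% on day 14. The means followed the order of time, with days 0 and 1 and days 1 and 4 overlapping. It fell by 0.43 on day 7 (adjusted p = 0.00199) and by 0.56 on day 14 (adjusted p = 0.000365) against day 0, with an SE of 0.10. Without day 14 replicate 3 the day 7 difference was -0.27 (adjusted p = 0.0395). The differences of -0.10 on day 1 (95% interval -0.32 to 0.12, adjusted p = 0.399) and -0.20 on day 4 (-0.41 to 0.02, adjusted p = 0.103) did not pass. Set against the median of all tested miRNAs, miR-128 lay 0.11 lower on day 7 and 0.19 lower on day 14 (-0.11 and -0.19), the smallest distances among the members called at those times.

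miRNAs of Schwann cells and myelinating glia also fell after injury. Of 6 listed, 5 were tested, and 3, 4, 4 and 5 were lower on days 1, 4, 7 and 14 against day 0, with none higher. Of all tested miRNAs, 43.7%, 45.5%, 45.5% and 50.6% were lower at these times. miR-128 was called lower on days 7 and 14, under 2 and 4 of the 6 scalings compared below. The summed share of the glial list in the signal was 6.05 to 8.14% on day 0, 4.66 to 5.58% on day 1, 3.78 to 4.45% on day 4, 3.83 to 4.24% on day 7 and 4.76 to 5.61% on day 14. miR-338, a marker of myelinating glia, was detected on all 15 arrays, and the oligodendrocyte miRNA miR-219-5p on 2. The part of these cells in the falls of miR-9, miR-9*, miR-218 and miR-128 was not tested. The muscle list ranged from 0.240 to 5.81% on day 0 and from 0.117 to 1.65% on the injured arrays, and its part was not tested.

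The change measured depends on what is held constant between arrays. Under 6 scalings the median change of all tested miRNAs against day 0 ran from -0.39 to -0.01 on day 1, from -0.41 to 0.05 on day 4, from -0.32 to 0.04 on day 7 and from -0.37 to 0.02 on day 14. miR-7a passed as higher under all 6 on days 1, 4 and 7, and on day 14 under the 5 alternatives, with 0.30 to 0.67, but not under the scaling used here. miR-124 passed as higher under all 6 on day 1 and under 4 on day 4. miR-137 passed as higher under 5 of 6 on days 1 and 4, all except the deposited value table, and as lower under all 6 on day 14. With the software's total signal, which is not among the 6, its day 1 and day 4 calls were also lost.

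miR-9, miR-9* and miR-218 passed as lower under all 6 scalings on days 4, 7 and 14, but on day 1 under 3, 4 and 3. miR-128 passed as lower under 2 of 6 on day 7 and 4 on day 14, and its sign on days 1 and 4 was negative under 2 of 6. The day 7 sign of miR-124 and miR-137 was negative under 1 of 6, the scaling used here, and that of miR-124 on day 14 under 4 of 6. Relative to the median of all tested miRNAs, the changes on days 1, 4, 7 and 14 were 0.90, 1.46, 1.34 and 0.49 for miR-7a, 1.18, 0.57, 0.23 and 0.05 for miR-124, and 1.05, 0.94, 0.27 and -0.61 for miR-137. They were -0.25, -0.77, -0.75 and -0.63 for miR-9, -0.26, -0.87, -0.90 and -0.61 for miR-9*, and -0.14, -0.49, -0.66 and -0.70 for miR-218.

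**Figure D3:**
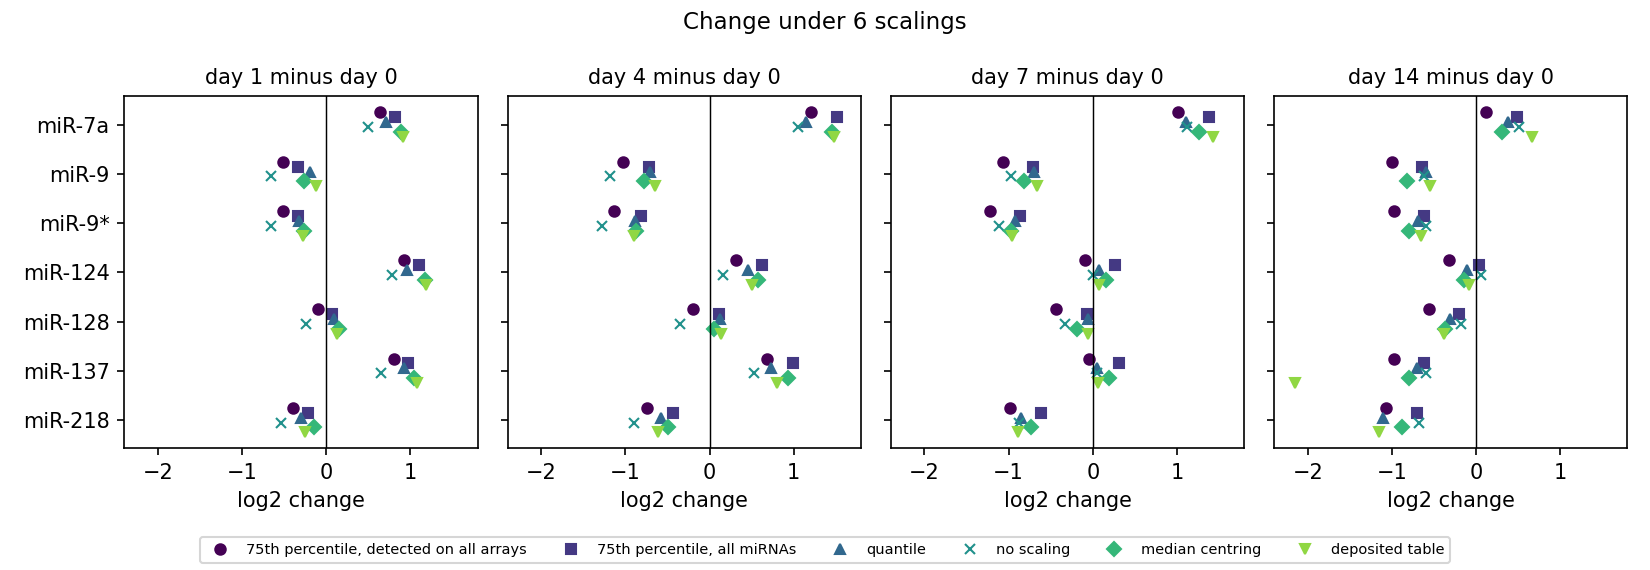
Change of each member against day 0 (horizontal axis, log2, injured minus day 0) at days 1, 4, 7 and 14 under 6 ways of scaling the arrays, each with its own symbol. miR-7a stayed right of 0 in every panel and miR-9, miR-9* and miR-218 left of it, while miR-128 on days 1 and 4, miR-137 on day 7 and miR-124 on days 7 and 14 lay on both sides.

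The array carried 19 other miRNAs listed as enriched in neurons. Of these, 9 were not detected on any array (miR-7b, miR-124*, miR-218*, miR-129, miR-135a, miR-153, miR-346, miR-383 and miR-485) and 10 were tested. Against day 0, 1 of the 10 was higher at each of days 1, 4, 7 and 14, and 1, 2, 4 and 4 were lower. Their median changes were -0.07, 0.08, -0.26 and -0.25.

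The higher one was miR-132 at all 4 times, a miRNA induced by neuronal activity through CREB. It was not detected on any day 0 array. Against its own undetected signal there, its fitted level was 2.74-fold, 4.84-fold, 4.20-fold and 3.52-fold higher on days 1, 4, 7 and 14. These values are estimates and not lower bounds, since its day 0 level was not set by a detected signal. Its partner from the same cluster, miR-212, did not pass at any time. The only miRNA lower on day 1 was miR-7a*, the other arm of a miR-7a hairpin: it was detected on 1 of 3 day 1 arrays and on all 3 day 0 arrays, so the size of the fitted change depends on the floor set for low values and is not given.

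miR-138, which restrains dendritic spine size in rat neurons and is also on the Schwann cell list, changed by -0.97, -1.69 and -1.75 on days 4, 7 and 14 with an SE of 0.17, and by -0.01 on day 1. miR-384-5p fell by 0.44 on day 4 and by 0.49 on day 7. miR-326 fell by 0.59 on day 7 and by 0.93 on day 14, and miR-487b by 0.36 and 0.57 on the same days. miR-129* fell by 0.61 on day 14. On day 14, miR-326, miR-487b and miR-129* were each detected on 2 of 3 arrays.

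**Figure D4:**
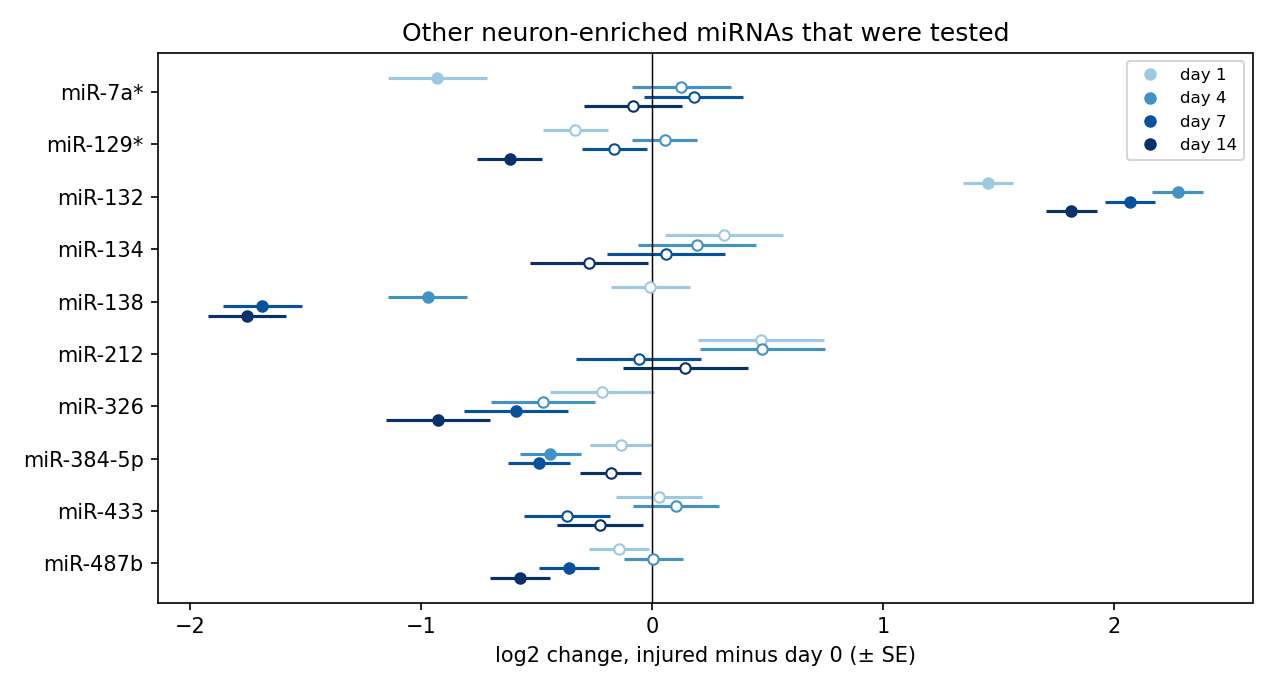
Change of the 10 other neuron-enriched miRNAs that were tested (horizontal axis, log2, injured minus day 0, with SE bars) at days 1, 4, 7 and 14, filled where the adjusted p was below 0.05. miR-132 lay right of 0 at all 4 times, where the fitted value is not a bound, the day 1 value of miR-7a* rests on the floor for low values, and miR-138 lay left of 0 from day 4 on.

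Across the 15 arrays the tested miRNAs most like each member were ranked by Pearson's r of log2 levels, as a description of arrays that share group, slide and scaling. Nearest to miR-7a were miR-21* (r = 0.911, detected on 10 arrays), miR-18a (0.882, detected on 13) and miR-222 (0.843). For miR-124 they were miR-182 (0.952), miR-96 (0.921) and miR-341 (0.894), and for miR-137 miR-425 (0.945), miR-323 (0.911, detected on 14) and miR-182 (0.903). miR-9 was followed by let-7d (0.980), let-7c (0.977) and miR-352 (0.977), and miR-9* by let-7c (0.987), miR-100 (0.985) and miR-26b (0.979), outside its partner arm. miR-218 ran closest to miR-125b-5p (0.985), miR-107 (0.982) and miR-99a (0.980), and miR-128 to miR-598-3p (0.898, detected on 14), miR-138 (0.881) and miR-183 (0.862).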

How the data were processed

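Per the file headers, the deposited intensities come from Feature Extraction 10.7.3.1 (Agilent): spot signals with background subtracted and no scaling between arrays. The deposited value table holds log2 values whose normalization is not given in the sources used here; its median over 349 miRNAs was 4.28 on 14 arrays and 0.834 on day 14 replicate 3, and it served only as an alternative. Outlier and control spots were left out, spots averaged per probe and probes per miRNA. Levels were scaled to the 75th percentile of 164 miRNAs that all 15 arrays detected, floored at log2 -8.11 and logged. limma 3.58.1 (R 4.3.3) fitted 5 group means to 231 miRNAs detected on all 3 arrays of a group, with Benjamini-Hochberg adjustment over all 231 in each comparison. Tested on simulated data for day 1 against day 0 (231 miRNAs, 60 changed), it recovered 78.5%, 93% and 98.8% of 1.5-, 2- and 4-fold changes. Of its calls there, 3.65% were false. The simulated noise was independent between miRNAs and held no slide effect, and in the real data most miRNAs were called. These rates may therefore not hold for the real arrays. The number of arrays limits precision. Members and lists were chosen with earlier results of these data known. Members are described in full, other neuron-enriched miRNAs by their calls, and the 3 with highest r as most alike. No pairing by replicate number entered the main fit. Correlations of same-numbered deviations between injured and day 0 arrays ran from -0.78 to 0.59. Differently numbered arrays were not compared, so these values cannot show whether the arrays were paired. Sequences and positions are RefSeq's (GRCr8).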

Additional observations from a re-analysis of the deposited data

Results flagged for a closer look

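Several members changed between consecutive times and not only against uninjured nerve, so that their effects at 2 times differed by limma's test of the difference itself. Between days 1 and 4, miR-7a moved by 0.56, miR-9 by -0.52, miR-9* by -0.62 and miR-124 by -0.61 (log2, later minus earlier). Between days 4 and 7, miR-137 moved by -0.73. Between days 7 and 14, miR-7a moved by -0.89 and miR-137 by -0.93. For the steps between days 1 and 4 and between days 4 and 7, slide and group cannot be told apart. The miR-9 call was lost with the brightest probe alone. Both miR-137 calls were lost under some alternatives, as given with its results.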

How the results depend on the processing

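The replicate block changed none of the 49 member calls: it kept 6, 5, 5 and 5 members called on days 1, 4, 7 and 14 against day 0. Of 1386 member values under alternatives, 1316 stayed on the same side of the threshold (44 of them, none a called value, with a changed sign), 37 lost a call, 32 gained one and 1 reversed: miR-137 on day 7 against day 0 became 0.31 (adjusted p = 0.0363) with the 75th percentile over all miRNAs. The cause was not tested.

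The 6 members called on day 1 became 2 with the deposited table and 3 with median centring. Leaving out single arrays gave 3 to 6, the 3 without day 14 replicate 3, which changes the miRNAs that set the scale; miR-9, miR-9* and miR-218 then stood at -0.30, -0.30 and -0.18, miR-7a on day 14 was called at 0.26 and miR-124 on day 4 at 0.46. miR-218 on day 1 also lost its call without day 0 replicate 3, day 1 replicate 1 or day 1 replicate 3. The 1 call between days 4 and 7 became 0 with the brightest probe, no scaling, normexp (on spot medians), the software's total signal or only miRNAs detected on all arrays, which leaves miR-137 out, and 2 with median centring; without single arrays it was 0 to 1, the 0 without day 4 replicate 1 or 3 or day 7 replicate 1 or 2. The 2 calls between days 7 and 14 became 1 with the deposited table, the total signal or only miRNAs detected on all arrays, and stayed 2 without single arrays. The miR-9 minus miR-9* difference became 0.16 (p = 0.044) with quantile normalization and 0.20 (p = 0.022) with the deposited table, both by the exact permutation test. That test treats arrays as exchangeable, though arrays of a group shared a day and mostly a slide. Without single arrays the difference ran from 0.0092 to 0.095. Within a scan day, chosen after seeing the data, the counts between days 4 and 7 and between days 7 and 14 stayed 1 and 2. The causes were not tested. With the deposited table, the call between days 4 and 7 was miR-124 (adjusted p = 0.0489) and not miR-137 (adjusted p = 0.639). The lowest member signals were 22.3 intensity units for miR-137 and 24.5 for miR-7a.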
